A study of Mus musculus with 2 samples.

Results

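The genes described here are 32 transporters, pumps, junction proteins and vesicle proteins that build or mark the blood-brain barrier of the mouse. They were chosen by symbol, with earlier results of these data known. Shares of them set beside all genes are therefore descriptions and not independent tests. All 32 were found among the 32285 features of the count tables, each with at least 1 unique molecular identifier (UMI, the tag that marks 1 captured RNA molecule) in a kept cell. Their levels were followed across vessel cells, macrophages, glia and neurons. The cells came from the brain of C57BL/J mice at postnatal day 10, with no treatment, transgene or control, and were run as 2 droplet libraries of 1 group. The series names 6 mice, and no label ties a mouse to a library. The p-values therefore measure only how differences between cell classes vary between the 2 libraries, pooled over all 8 classes. That spread may be technical.

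Brain capillaries are lined by endothelial cells that are sealed to each other by tight junctions, move few vesicles across the cell, and carry glucose, amino acids, lactate, lipids and vitamins inward with dedicated carriers while pumps of the ATP-binding cassette family return lipophilic compounds to the blood. Pericytes and smooth muscle cells wrap these vessels, astrocyte endfeet cover them, and macrophages lie beside them. Wnt signals from neural cells act on the endothelium through Fzd4 and beta-catenin and are known to induce and keep the barrier programme, which is still being completed in the first postnatal weeks.

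Library 1 held 12978 barcodes with a median of 3446 UMIs, and library 2 held 19508 with a median of 1470. After the quality limits and removal of doublets, 11992 and 14121 cells were kept, of which 5.79% and 35.8% lay in clusters that stayed unnamed, most of them of low depth and from library 2. The barcode sequences present in both libraries numbered 90. The 8 classes compared had at least 40 cells in each library and were named from marker genes other than the 32. Endothelial-like cells numbered 111 and 135 in libraries 1 and 2, with a median of 5847 and 4237 UMIs. Pericyte-like cells numbered 530 and 69, microglia-like cells 95 and 1949, border macrophage-like cells (macrophages of the meninges and around vessels) 44 and 167, astrocyte-like cells 1335 and 666, ependymal-like cells 386 and 75, oligodendrocyte lineage-like cells 2374 and 878, and neuronal lineage-like cells 6369 and 5018. All 18 endothelial markers had UMIs in the endothelial-like cells of both libraries. Levels are UMIs of a gene after all UMIs of the class in that library were scaled to 1000000 (CPM), and levels of different genes are not compared, since each UMI marks only a 3′ end. The endothelial-like cells also held 139 and 9.56 CPM of the 12 pericyte markers, with 2 and 8 of them at 0, and 3190 and 1365 CPM of the 9 erythroid markers. Neuronal lineage markers were at 710 and 783 CPM there, astrocyte markers at 385 and 382.5 CPM and border macrophage markers at 214.5 and 251 CPM. The part of any of these in the levels below was not tested.

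Endothelial-like cells stood apart from all other classes in the summed level of the 32 genes. That sum was 15000 CPM in library 1 and 14640 CPM in library 2, against 288 to 1115 CPM in the other 7 classes. Of the 32 genes, 28 had their highest mean level in endothelial-like cells, and for 27 of these both libraries lay above both libraries of the next class. The exception was the vitamin transporter gene Slc5a6. How many of all genes had such an order was not counted, so these are counts of the 32 genes only. The 4 genes that were highest elsewhere were Slc6a8, Cldn12, Plvap and Cgn. The class with the next highest level was pericyte-like for 10 of the 28 genes, ependymal-like for 7, microglia-like for 4, border macrophage-like for 3, and astrocyte-like and oligodendrocyte lineage-like for 2 each.

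The test of class sums, edgeR's quasi-likelihood F test with the library as a block, covered 31 of the 32 genes. Calls needed an adjusted p under 0.05, at least a 2-fold difference (1 on the log2 scale) and 1 direction in both libraries. Against pericyte-like cells 26 genes were called higher in endothelial-like cells and 0 lower, where 9.05% of all 14462 genes tested were called higher and 9.6% lower. Against astrocyte-like cells 28 were called higher and 1, Slc6a8, lower, beside 13.4% and 18.5% of all genes. Against microglia-like cells 26 were called higher and 0 lower (12.9% and 15.3% of all genes), against border macrophage-like cells 25 and 0 (10.6% and 10.2%), and against neuronal lineage-like cells 28 and 0 (18% and 20.6%). Where 0 were called lower, edgeR's unadjusted p was under 0.05 for 1 lower gene against pericyte-like cells, Slc6a8, and for 0 in the other 3 comparisons, and the Wald test of DESeq2 also called 0. The median log2 difference over the 31 genes was 4.75 against pericyte-like cells, 4.97 against astrocyte-like, 5.81 against microglia-like and 7.51 against neuronal lineage-like cells, where that over all genes lay between -0.27 and -0.04. Against border macrophage-like cells it was 8.59 as fitted, and 5.42 with the 14 genes that had no UMI in those macrophages set at the limit of 3 UMIs over the class, beside 0.001 over all genes. With the 2 such genes of microglia-like cells at that limit, the median there was 5.53.

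**Figure D1:**
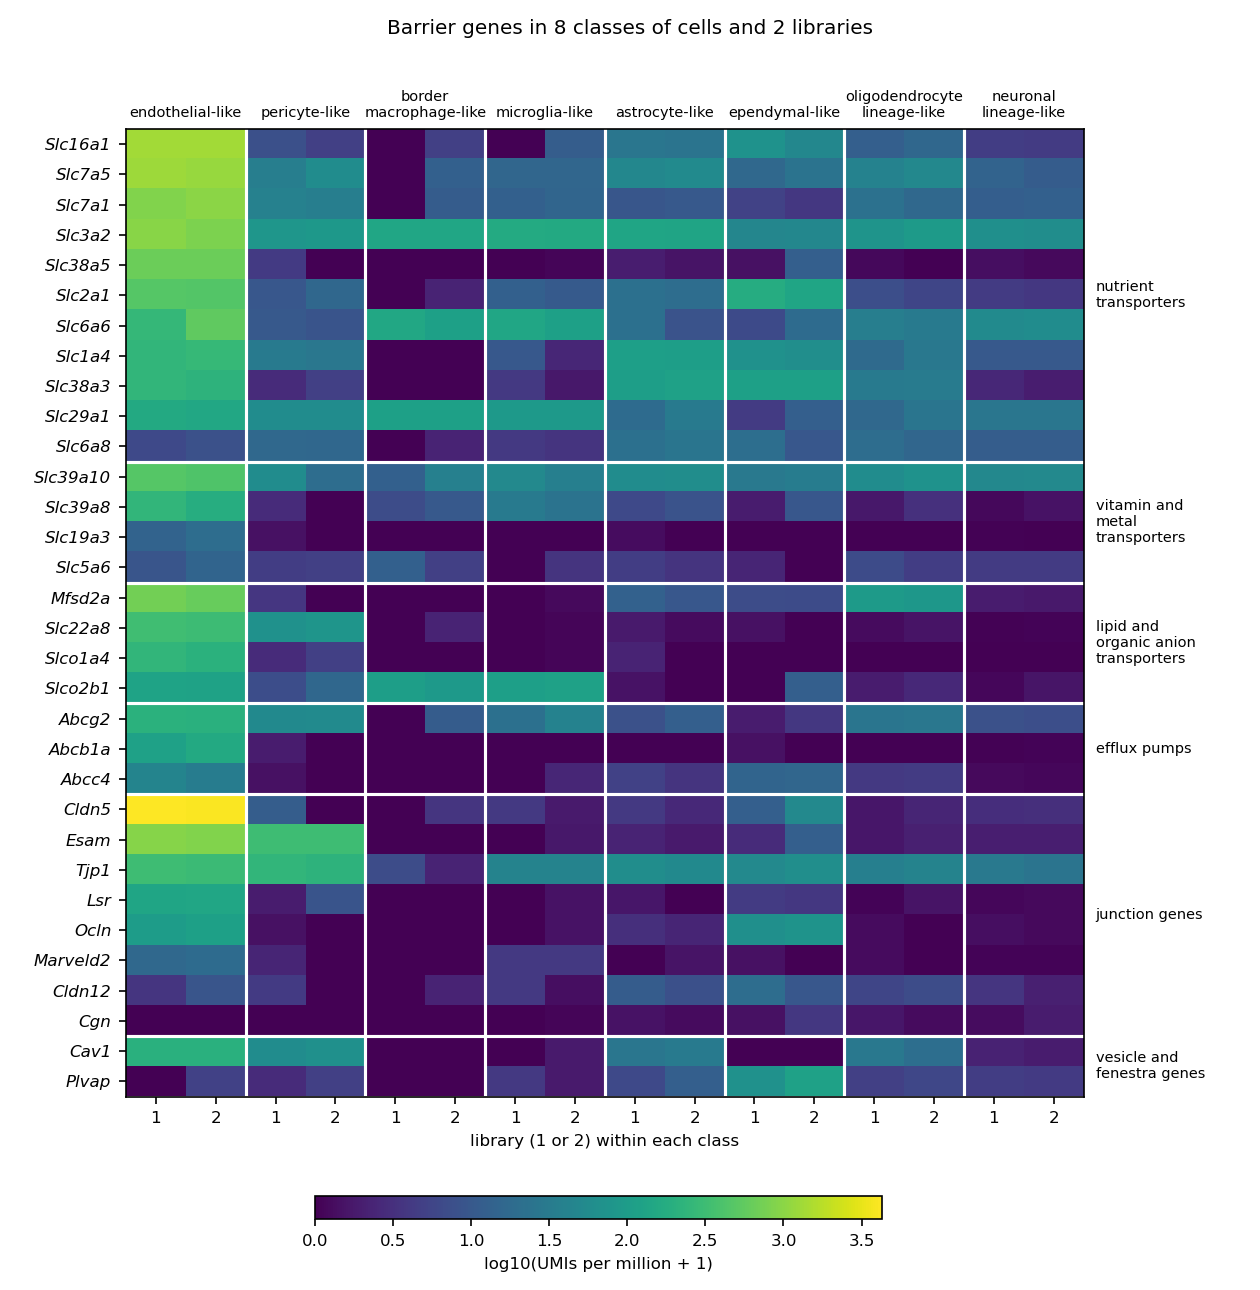
Level of each of the 32 genes as log10(CPM + 1) (colour) in 8 classes (column pairs, libraries 1 and 2), with genes ordered by role and then by level in endothelial-like cells. The endothelial-like pair is brightest in most lines. Slc3a2, Slc29a1 and Slc39a10 are seen in every class, and Tjp1 is near the floor in border macrophage-like cells.

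Among the nutrient carriers, Slc2a1, the glucose transporter GLUT1, stood at 469 and 460 CPM in endothelial-like cells. It was next highest in ependymal-like cells, at 178 and 137 CPM, and lay between 0 and 20.7 CPM in the libraries of the other 6 classes. Endothelial-like and ependymal-like libraries thus did not overlap, and the endothelial mean was 2.96-fold higher. Against astrocyte-like cells the log2 difference was 4.78 (SE 0.216, edgeR adjusted p = 2.6e-16), and against pericyte-like cells it was 5.80 (SE 0.291, edgeR adjusted p = 1.2e-14).

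The large neutral amino acid exchanger is a pair of proteins, the carrier LAT1 from Slc7a5 and its heavy chain CD98 from Slc3a2. Slc7a5 was at 1253 and 1173 CPM in endothelial-like cells and at 47.2 and 53.0 CPM in astrocyte-like cells, the next highest class. Slc3a2 was at 967 and 814 CPM in endothelial-like cells and between 45.9 and 166 CPM in all libraries of the other 7 classes. The light chain had 86.3% of its summed class means in the endothelium and the heavy chain, which also serves other light chains, 55.6%.

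Slc16a1 encodes the monocarboxylate carrier MCT1, which moves lactate and ketone bodies, fuels of the suckling brain. It was at 1339 and 1347 CPM in endothelial-like cells and at 70.7 and 46.5 CPM in ependymal-like cells, a 22.9-fold difference in the means. In fibroblast-like cells, 44 and 8 in number and not in the fit, it was at 228 and 17.6 CPM. The cationic amino acid carrier gene Slc7a1 was at 871 and 1011 CPM in endothelial-like and at 38.9 and 34.4 CPM in pericyte-like cells. The glutamine carrier gene Slc38a5 was at 655 and 646 CPM in endothelial-like cells and, at most, 11.6 CPM elsewhere, in the ependymal-like cells of library 2. Each of these 3 genes had over 90% of its summed class means in the endothelium.

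The related glutamine carrier gene Slc38a3 had another distribution. It was at 241 and 223 CPM in endothelial-like cells, 109 and 119.5 CPM in astrocyte-like cells, 115 and 116 CPM in ependymal-like cells and 30.2 and 31.4 CPM in oligodendrocyte lineage-like cells. Astrocyte-like and ependymal-like levels overlapped, and both lay below the endothelial ones. Slc1a4, which carries serine and other small neutral amino acids, followed a like order, at 245 and 270.5 CPM in endothelial-like, 109.5 and 108 CPM in astrocyte-like and 67.9 and 61.1 CPM in ependymal-like cells. The log2 difference between endothelial-like and astrocyte-like cells was 1.24 for Slc38a3 (SE 0.195, edgeR adjusted p = 9.2e-06) and 1.46 for Slc1a4 (SE 0.214, edgeR adjusted p = 3.2e-06). Without an astrocyte-like cluster led by Ttr and other clusters with mixed markers, an alternative chosen after seeing the data, the difference of Slc38a3 was 0.95 and no longer reached the limit of 1.

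The taurine carrier gene Slc6a6 was at 258 and 559 CPM in endothelial-like cells of libraries 1 and 2. Its UMIs were gathered in few cells: the top 10% of endothelial-like cells held 65.1% of them in library 1 and 52.8% in library 2, against 31.1% and 33.2% for Slc2a1 and 27.2% and 27.3% for Cldn5. Microglia-like cells held it at 139 and 115 CPM. Border macrophage-like cells, at 150.1 and 116 CPM, overlapped with them, and both lay below the endothelium. Against microglia-like cells the endothelial log2 difference was 1.52 (SE 0.299, edgeR adjusted p = 0.00017).

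Slc29a1, the equilibrative nucleoside transporter ENT1, was spread over vessels, macrophages and, at lower levels, all other classes. It was at 159 and 152 CPM in endothelial-like cells, 114 CPM in both libraries of border macrophage-like cells, 91.8 CPM in both libraries of microglia-like cells and 57.0 and 57.4 CPM in pericyte-like cells. Its endothelial levels lay above the macrophage levels in both libraries, but the log2 difference of 0.60 from microglia-like cells did not pass the test (SE 0.239, edgeR adjusted p = 0.0514). That of 0.46 from border macrophage-like cells did not either (SE 0.266, edgeR adjusted p = 0.255). Slc6a8, the creatine carrier, was low in the endothelium, at 5.30 and 6.83 CPM, which are 4 and 5 UMIs. It was at 20.7 and 24.6 CPM in astrocyte-like cells, 19.0 and 14.9 CPM in oligodendrocyte lineage-like cells and 10.7 and 10.95 CPM in neuronal lineage-like cells. Slc6a8 was the only gene of the 32 called lower in endothelial-like than in astrocyte-like cells, with a log2 difference of -1.67 (SE 0.458, edgeR adjusted p = 0.00443).

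Among the vitamin and metal carriers, Slc39a8 and Slc39a10 encode ZIP8 and ZIP10, which bring zinc and, for ZIP8, manganese into cells. Slc39a8 was at 245 and 182 CPM in endothelial-like cells and at 29.6 and 23.02 CPM in microglia-like cells, the next highest class. Slc39a10 was at 473 and 422 CPM in endothelial-like cells and between 12.01 and 69.1 CPM in every other class and library. Both were called higher in endothelial-like cells in all 5 comparisons with other classes.

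The thiamine transporter gene Slc19a3 was detected at 13.2 and 19.1 CPM in endothelial-like cells, from 10 and 14 UMIs, and had no UMI in ependymal-like, oligodendrocyte lineage-like, microglia-like or border macrophage-like cells of either library. Taking 3 UMIs over the class as the limit, its endothelial mean was at least 78.2-fold higher than in oligodendrocyte lineage-like and at least 46.2-fold higher than in microglia-like cells. The multivitamin transporter gene Slc5a6 was at 7.94 and 13.7 CPM in endothelial-like cells and overlapped with border macrophage-like cells, at 12.01 and 3.94 CPM. These are 6 and 10 UMIs against 2 and 3, and a difference was not detectable at this depth (log2 difference 0.84, SE 0.802, edgeR adjusted p = 0.536).

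Mfsd2a carries lysophosphatidylcholine with docosahexaenoic acid into the brain and holds vesicle transport down. It was at 728 and 615 CPM in endothelial-like cells. The only other class above 20 CPM in both libraries was the oligodendrocyte lineage, at 95.7 and 83.4 CPM, where a cluster led by the precursor genes C1ql1, Lhfpl3 and Matn4 held 143 and 132 CPM. UMIs of Mfsd2a were thus not found in vessel classes only. Endothelial markers were at 0.143% of their endothelial level in the oligodendrocyte lineage, where Mfsd2a was at 13.3% of its own. The part of endothelial RNA in that level was not tested. The log2 difference of this lineage from neuronal lineage-like cells was 6.63 (SE 0.258, edgeR adjusted p = 2.1e-16).

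The organic anion carriers differed in how far they reached beyond the endothelium. Slco1a4, which carries bile acids, thyroid hormone and drugs, was at 242 and 206 CPM in endothelial-like cells and had no UMI in neuronal, oligodendrocyte lineage or ependymal-like cells, so that its endothelial mean was at least 2515-fold higher than in neuronal lineage-like cells. Reads of Slco1a4 and of Abcb1a can be shared with close paralogs. Slc22a8, the organic anion transporter OAT3, was at 328 and 310 CPM in endothelial-like cells and at 67.3 and 76.5 CPM in pericyte-like cells. It lay at or below 1.31 CPM in the other 6 classes. In pericyte-like cells Slc22a8 stood at 22.5% of its endothelial level, where endothelial markers stood at 6.25%, and the part of endothelial RNA was not tested.

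Slco2b1 divided the classes another way, between vessel lining and macrophages on 1 side and all other cells on the other. It was at 128 and 123 CPM in endothelial-like, 110 and 117 CPM in microglia-like and 108 and 89.3 CPM in border macrophage-like cells. The log2 difference between endothelial-like and microglia-like cells was -0.01 (SE 0.335, edgeR adjusted p = 1.0). Microglia-like exceeded neuronal lineage-like cells, at 0.151 and 0.580 CPM, by 8.62 on the log2 scale (SE 0.428, edgeR adjusted p = 9.1e-16). After each cell was thinned to 2000 UMIs, 20.8% and 20.9% of microglia-like cells still had a Slco2b1 UMI (exact Clopper-Pearson 95% intervals 12.16 to 32.02 and 18.98 to 22.98), beside 25.3% and 26.9% of endothelial-like cells and 0.158% and 0 of neuronal lineage-like cells. Unthinned shares were 30.5% and 35.3%, 49.5% and 39.3%, and 0.1% and 0.2%. Endothelial markers in microglia-like cells were at 0.723% of their endothelial level, with 11 and 4 of the 18 at 0, and their part was not tested.

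The efflux pumps ranged from nearly exclusive to shared. Abcb1a, P-glycoprotein, was at 119 and 157 CPM in endothelial-like cells, and the highest level elsewhere was 0.904 CPM, from 2 UMIs in the pericyte-like cells of library 1. It had no UMI in astrocyte-like, oligodendrocyte lineage-like, microglia-like or border macrophage-like cells, and its endothelial mean was at least 447-fold higher than in astrocyte-like cells. Abcg2, the breast cancer resistance protein, was at 210.5 and 201 CPM in endothelial-like, 52.0 and 53.5 CPM in pericyte-like, 20.7 and 40.3 CPM in microglia-like and 24.9 and 26.2 CPM in oligodendrocyte lineage-like cells. Abcc4, the multidrug resistance protein MRP4, was at 42.4 and 32.8 CPM in endothelial-like and 13.8 and 14.5 CPM in ependymal-like cells. The 3 pumps were called higher in endothelial-like cells in all 5 comparisons with edgeR, but the calls of Abcb1a were lost with the Wald test of DESeq2 (adjusted p = 0.0966 to 0.433), and so were 4 of 5 calls of Slco1a4 (0.228 to 0.547 for those lost) and of Slc19a3 (0.0937 to 0.356 for those lost).

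Of the junction genes, Cldn5, the main claudin of brain endothelium, was at 4273 and 4027 CPM in endothelial-like cells and held 98.9% of its summed class means there. In the other 7 classes it lay between 0 and 49.5 CPM. After thinning, 94 of 95 endothelial-like cells of library 1 and 119 of 119 of library 2 had a Cldn5 UMI (exact Clopper-Pearson 95% intervals 94.3% to 99.97% and 96.95% to 100%), against 0 of 633 and 1 of 566 neuronal lineage-like cells. Lsr, the angulin of junctions where 3 cells meet, was at 136 and 142 CPM in endothelial-like and at 0.904 and 7.65 CPM in pericyte-like cells. Marveld2, tricellulin of the same junctions, was at 15.9 and 17.8 CPM in endothelial-like and 2.96 and 3.03 CPM in microglia-like cells. The microglia-like level of library 1 is that of 1 UMI.

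Ocln, occludin, was shared with the ventricle lining, at 100.6 and 115 CPM in endothelial-like and 62.9 and 72.7 CPM in ependymal-like cells. The libraries of these classes did not overlap, and in each of the other 6 classes Ocln was at 2.13 CPM or less. Cldn12, by contrast, was low throughout, at 2.65 and 8.20 CPM in endothelial-like, 10.3 and 6.62 CPM in astrocyte-like and 18.8 and 8.73 CPM in ependymal-like cells. Its endothelial and astrocyte levels overlapped, and the ependymal level of library 2 rests on 3 UMIs. Cgn, cingulin, a plaque protein of tight junctions, had no UMI in endothelial-like cells, which at 3 UMIs per library allows up to 3.97 and 4.10 CPM. Its highest level was 0.459 and 2.91 CPM, in ependymal-like cells, from 1 UMI in each library, and it was too low to be tested.

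Tjp1 and Esam had their highest levels in the endothelial-like and pericyte-like classes. Tjp1 encodes ZO-1, the scaffold that ties junctions to actin. In astrocyte-like and ependymal-like cells it stood at 18.2% of its endothelial level and in microglia-like cells at 13.4%. It was at 319 and 296 CPM in endothelial-like and 243 and 222 CPM in pericyte-like cells, and the log2 difference of 0.55 missed the limit of 1 (SE 0.197, edgeR adjusted p = 0.0438). Esam, an endothelial adhesion molecule, was at 947 and 881 CPM in endothelial-like and 316 and 321 CPM in pericyte-like cells, and at 11.6 CPM or less elsewhere. The log2 difference between endothelial-like and pericyte-like cells was 1.69 (SE 0.215, edgeR adjusted p = 6.8e-07), and that of pericyte-like from neuronal lineage-like cells was 8.26 (SE 0.304, edgeR adjusted p = 6.4e-18).

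The vesicle genes were a contrasting pair. Cav1, the coat protein of caveolae, was at 203 and 204 CPM in endothelial-like cells, 57.9 and 65.0 CPM in the pericyte-like class, 25.7 and 30.1 CPM in astrocyte-like and 27.7 and 19.5 CPM in oligodendrocyte lineage-like cells. Plvap, the diaphragm protein of fenestrae and of vesicles in leaky vessels, had no UMI in the endothelial-like cells of library 1 and 3 UMIs, or 4.10 CPM, in those of library 2. It was highest in ependymal-like cells, at 66.6 and 119 CPM, whose libraries lay above those of every other class. Next were astrocyte-like cells, at 5.41 and 11.6 CPM. Endothelial markers in ependymal-like cells were at 1.04% of their endothelial level, with 3 and 6 of the 18 at 0.

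**Figure D2:**
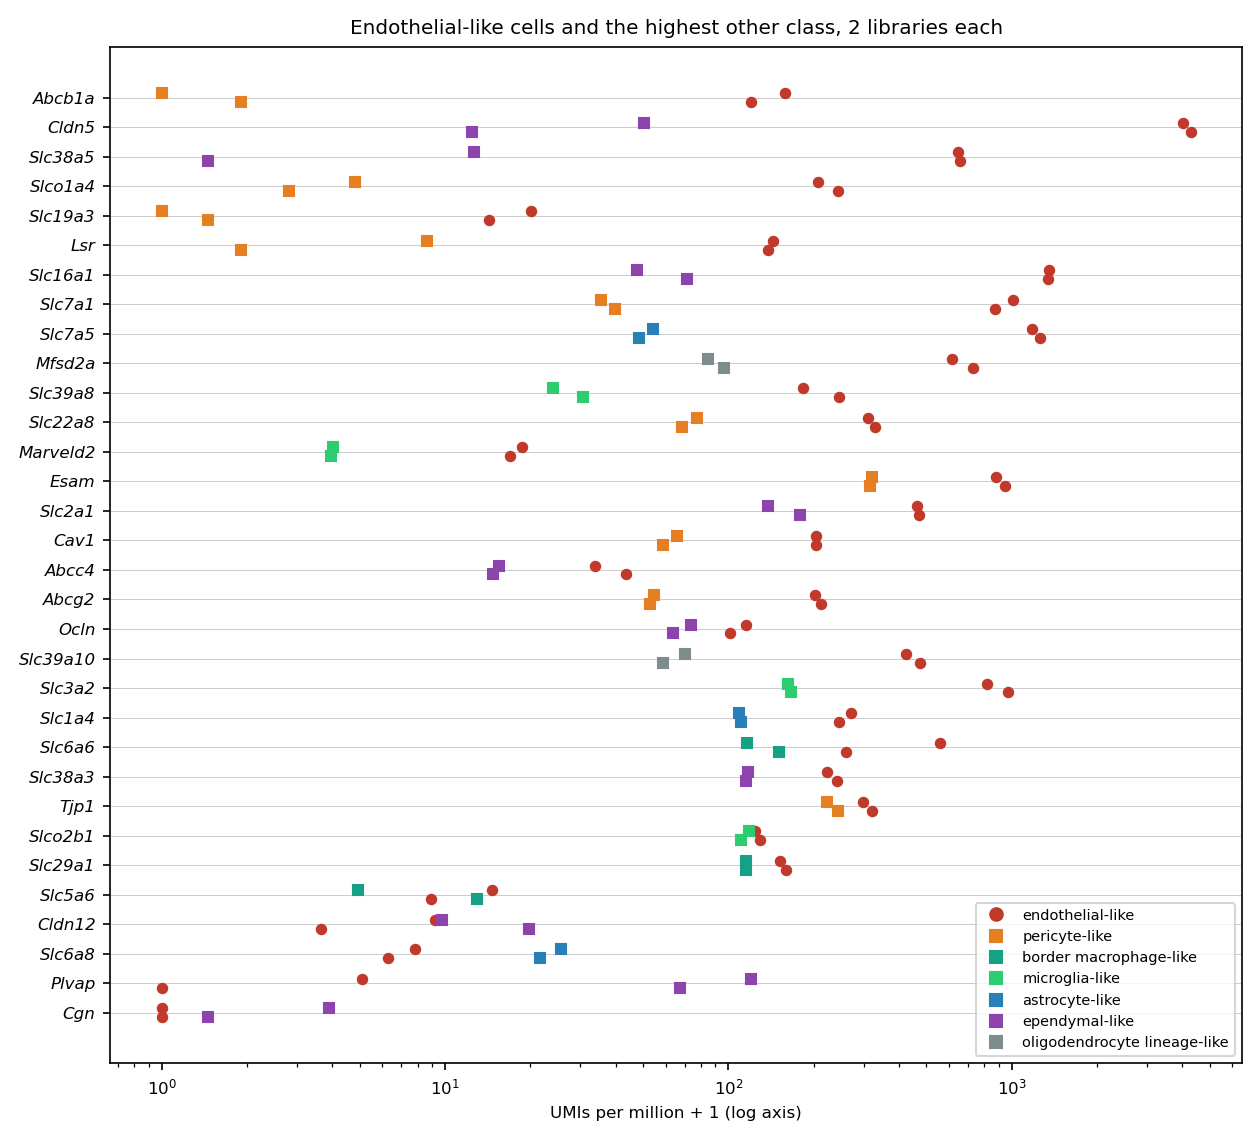
Level of each gene in endothelial-like cells (circles) and in the class with the highest level among the others (squares, coloured by class), 1 point per library, as CPM + 1 on a log axis, with genes ordered by the endothelial share of the summed class means. The gap closes from Abcb1a and Cldn5 at the top to Tjp1, Slco2b1 and Slc29a1, and the points are reversed for Cldn12, Slc6a8, Plvap and Cgn.

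The cells around the endothelium were then described in their own right. Against neuronal lineage-like cells 13 of the 31 genes were called higher and 1, Slc6a6, lower in the pericyte-like class, beside 17.6% and 18.4% of all genes. Those higher included Slc22a8, Esam, Cav1, Tjp1, Abcg2, Slco2b1 and Slc29a1. Endothelial markers in this class were at 6.25% of their endothelial level, and of the 28 genes highest in endothelium 17 stood at or below that share here and 1 exceeded 10 times it. The part of endothelial RNA in these calls was not tested. That class joined pericytes with smooth muscle, since Acta2, Tagln and Myl9 stood with Rgs5, Higd1b and Abcc9 among its leading genes. At a finer clustering (resolution 2), 459 and 58 pericyte-like cells were separated from 71 and 11 smooth muscle-like cells. The levels that follow are given without a test between the separated classes, because the second library held few smooth muscle-like cells.

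Slc22a8 was at 80.7 and 93.1 CPM in the pericyte-like cells so separated and had no UMI in smooth muscle-like cells of either library. Tjp1 was at 278 and 251 CPM against 68.3 and 86.02 CPM, and did not overlap. Cav1 was reversed, at 3.25 and 0 CPM in pericyte-like and 333 and 366 CPM in smooth muscle-like cells, above the endothelial 203 and 204 CPM. Esam, at 316 and 340 CPM against 314 and 237 CPM, and Abcg2, at 52.0 and 51.2 CPM against 51.9 and 64.5 CPM, were present in both wall cell types. Pericyte-like cells thus held 6 and 0 UMIs of Cav1 and smooth muscle-like cells 122 and 17. The log2 difference of Cav1 between the pericyte-like class and neuronal lineage-like cells fell from 5.74 to 1.38 when the classes were separated (edgeR adjusted p = 0.133).

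**Figure D3:**
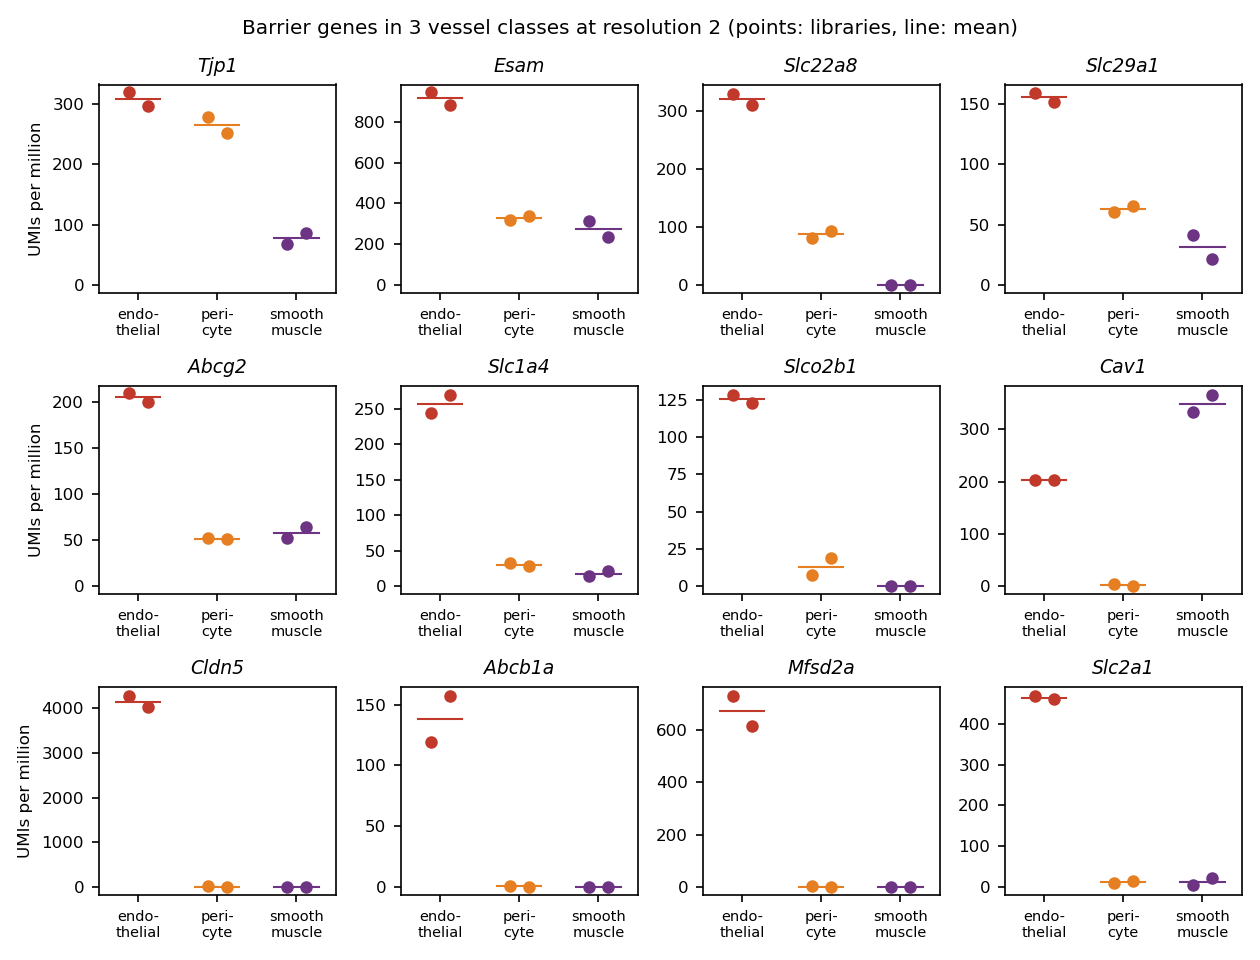
Level of 12 of the genes in CPM (vertical axes, linear) in endothelial-like, pericyte-like and smooth muscle-like cells at resolution 2, with 1 point per library and a line at the mean. Tjp1 and Slc22a8 are high in pericyte-like and low in smooth muscle-like cells, and Cav1 shows the opposite order.

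Astrocyte-like cells had 15 of the 31 genes called higher and 1, Slc6a6, lower than in neuronal lineage-like cells, beside 21.6% and 12.9% of all genes. Among them Slc38a3 and Slc1a4 were at 108 to 119.5 CPM, and Slc2a1, Slc7a5, Slc16a1, Mfsd2a and Cav1 were called higher at levels of 8.83 to 53.0 CPM. Markers of other classes were present beside them: the 12 choroid plexus markers, Ttr among them, summed to 3577 and 192 CPM and the 19 oligodendrocyte lineage markers to 1959 and 1784 CPM, and their part in these calls was not tested. These cells fell into a cluster led by Aqp4, the water channel of astrocyte endfeet, and a cluster led by Ttr. Slc38a3 was at 143 and 127 CPM in the Aqp4 cluster and at 67.7 and 80.9 CPM in the Ttr cluster. Slc7a5 was at 69.2 and 58.9 CPM against 20.4 and 21.1 CPM, and Cav1 at 38.2 and 33.4 CPM against 10.6 and 12.3 CPM. Tjp1 did not follow this order, at 52.5 and 51.7 CPM against 67.7 and 56.3 CPM. Endothelial markers in astrocyte-like cells were at 0.160% of their endothelial level. Of the 28 genes that were highest in endothelium, 18 exceeded 10 times that share there and 4 stood at or below it. The part of endothelial RNA in these levels was not tested.

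In microglia-like cells 9 genes were called higher and 3 lower (Slc1a4, Slc6a8 and Plvap) than in neuronal lineage-like cells, beside 19.9% and 23.3% of all genes. The 9 were Slco2b1, Slc39a8, Marveld2, Abcg2, Slc2a1, Slc29a1, Slc3a2, Slc6a6 and Tjp1. Most of these cells came from library 2, and their main cluster was led by the stress and chemokine genes Gdf15, Ccl4 and Ccl3. In border macrophage-like cells 14 of the genes tested had no UMI in either library. That class held only 166530 and 761276 UMIs, against 337563 and 8254515 in microglia-like cells, so that 1 UMI was 6.01 and 1.31 CPM and low levels were not detectable. Endothelial markers were at 2.83% of their endothelial level there, and 21 of the 28 genes highest in endothelium stood at or below that share. They held Slco2b1, Slc29a1, Slc6a6 and Slc3a2 at 89.3 to 150.1 CPM in both libraries. Tjp1, at 6.01 and 1.31 CPM, lay below its level in microglia-like cells, at 41.5 and 41.2 CPM, a difference that was not tested.

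The oligodendrocyte and neuronal lineages differed in the genes they held. In the oligodendrocyte lineage 10 of the 31 genes (32.3%) were called higher and 0 lower than in neuronal lineage-like cells, beside 12.8% and 10.4% of all genes. At an unadjusted p under 0.05 edgeR had 2 lower, Slc6a6 and Cldn5, and the Wald test of DESeq2 called 0. The 10 genes called higher included, besides Mfsd2a, Slc38a3, Cav1, Abcg2 and Slc7a5, which were at 19.5 to 49.0 CPM. In neuronal lineage-like cells only Slc3a2, Slc6a6, Slc39a10, Slc29a1 and Tjp1 stood above 20 CPM in both libraries. Slc6a6 and Slc29a1 were uneven among neuronal clusters. In a cluster led by Neurod1, with Prox1, Calb2 and Bhlhe22 among its leading genes, Slc6a6 was at 130 and 132 CPM and Slc29a1 at 89.0 and 84.6 CPM. In the other 8 neuronal clusters Slc6a6 lay between 16.5 and 82.5 CPM and Slc29a1 between 3.62 and 53.8 CPM.

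The genes were found together in single endothelial-like cells. With each cell thinned to 2000 UMIs, which left out 16 shallower cells in each library, the median endothelial-like cell held UMIs of 12 of the 32 genes in both libraries, with a range of 5 to 19 and 5 to 21. The median was 2 in pericyte-like, 1 in astrocyte-like and microglia-like, and 0 in neuronal lineage-like cells, again in both libraries. Without thinning it was 19 and 17 in endothelial-like cells. Of pericyte-like cells 10.7% and 9.38% had none of the genes after thinning, and of neuronal lineage-like cells 59.6% (377 of 633) and 58.1% (329 of 566), after 367 and 434 shallower ones of 1000 sampled per library were left out.

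**Figure D4:**
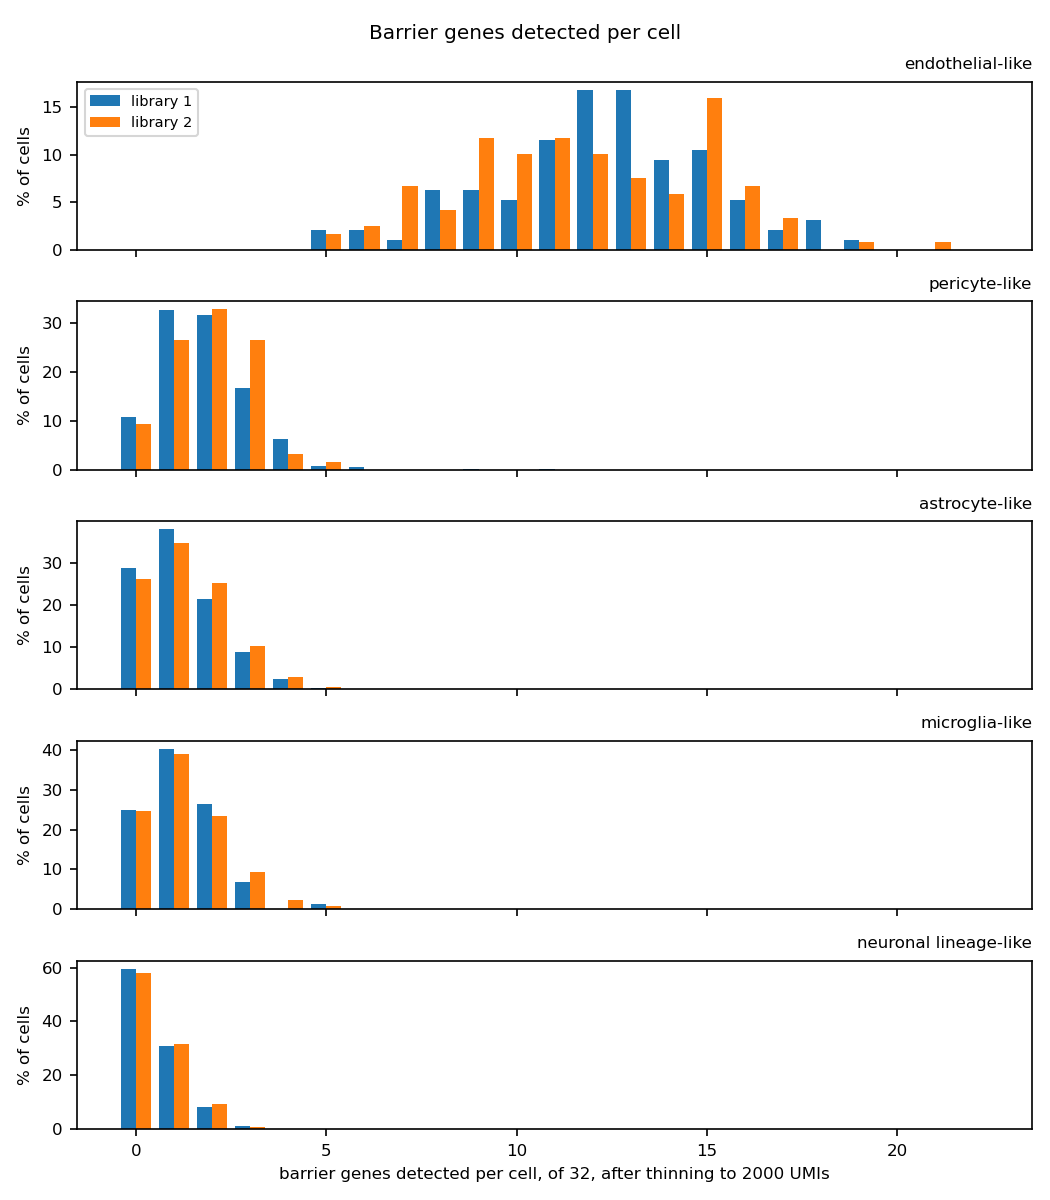
Share of cells (vertical axis, %) by the number of the 32 genes detected per cell after thinning to 2000 UMIs (horizontal axis) in 5 classes, libraries 1 and 2. Endothelial-like cells lie between 5 and 21 genes, and most cells of the other classes lie between 0 and 3.

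Other genes of the barrier were taken from 4 lists, also chosen with earlier results of these data known. Of 33 other transporters tested, 17 (51.5%) were called higher and 1 (3.03%) lower in endothelial-like than in neuronal lineage-like cells. Against pericyte-like cells 16 (48.5%) were higher and 5 (15.2%) lower. All genes had 18% higher and 20.6% lower in the former comparison and 9.05% and 9.6% in the latter. The median log2 differences of these transporters were 1.70 and 1.35, beside -0.27 and -0.04 over all genes. Slc40a1, the iron exporter ferroportin, was at 503 and 415 CPM in endothelial-like and 324 and 240.4 CPM in border macrophage-like cells. Slco1c1, a thyroxine carrier, was at 965 and 996 CPM in endothelial-like and 165 and 93.6 CPM in astrocyte-like cells. Slc16a4, at 156 and 138 CPM, and Slc35f2, at 39.7 and 49.2 CPM, were each at 5.82 CPM or less in the other classes.

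Of 24 Wnt pathway and transcription factor genes tied to barrier formation, 21 were called higher in endothelial-like than in neuronal lineage-like cells and 3 were not called, and 13 were higher and 2 lower against pericyte-like cells. All genes had 18% higher and 20.6% lower in the former comparison and 9.05% and 9.6% in the latter. The list's median log2 differences were 5.51 and 1.21. Sox17 and Sox7, endothelial transcription factors, were at 175 and 179 CPM and at 62.2 and 50.5 CPM in endothelial-like cells, and at 0.452 CPM or less in pericyte-like cells. The forkhead factor genes Foxf2 and Foxq1 were held by both vessel classes, Foxf2 at 125 and 123 CPM in endothelial-like and 86.3 and 95.6 CPM in pericyte-like cells, and Foxq1 at 310 and 311.5 CPM and 89.9 and 65.0 CPM.

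Of 22 other junction genes, 12 (54.5%) were called higher and 2 (9.09%) lower against neuronal lineage-like cells, beside 18% and 20.6% of all genes, with a median log2 difference of 1.26. Against pericyte-like cells 9 (40.9%) were higher and 1 (4.55%) lower, beside 9.05% and 9.6% of all genes, with a median of 0.48. Against astrocyte-like cells 9 (40.9%) were higher and 5 (22.7%) lower, beside 13.4% and 18.5% of all genes, with a median of 0.15. Cgnl1, paracingulin, was at 72.8 and 64.2 CPM in endothelial-like and 52.9 and 57.4 CPM in pericyte-like cells, in contrast to its relative Cgn, which had no UMI in either. F11r, the junctional adhesion molecule JAM-A, was at 134 and 124 CPM in endothelial-like and 97.8 and 98.5 CPM in microglia-like cells. Ildr2, an angulin like Lsr, was at 83.4 and 83.3 CPM in endothelial-like and 98.7 and 96.0 CPM in ependymal-like cells. Cldn3 had no UMI in endothelial-like cells and was at 9.80 and 11.3 CPM in neuronal lineage-like cells, which made it lower there.

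Of 15 caveola and transcytosis genes, 9 (60%) were called higher and 3 (20%) lower against neuronal lineage-like cells, beside 18% and 20.6% of all genes, with a median log2 difference of 1.81. Against pericyte-like cells 5 (33.3%) were higher and 4 (26.7%) lower, beside 9.05% and 9.6% of all genes, with a median of -0.86. Cavin1, a coat protein of caveolae, was at 136 and 157 CPM in endothelial-like, 148 and 126 CPM in pericyte-like and 104 and 105 CPM in ependymal-like cells, and Ehd2, which sits at the caveolar neck, was at 38.4 and 47.8 CPM against 92.2 and 72.7 CPM in pericyte-like cells. Cavin2 was at 92.7 and 73.8 CPM in endothelial-like cells and 1.81 and 0 CPM in pericyte-like cells. Cav2, the partner of Cav1, was at 105 and 113 CPM in endothelial-like cells and overlapped with ependymal-like cells, at 112 and 72.7 CPM.

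**Figure D5:**
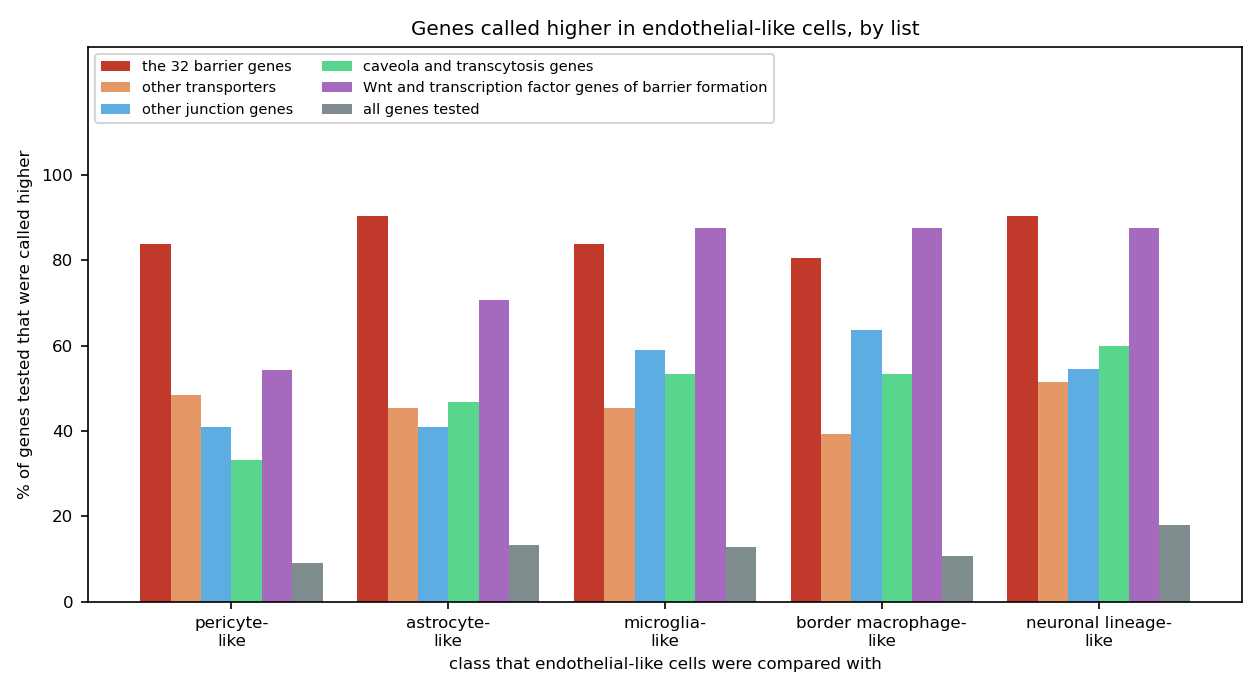
Share of genes tested that were called higher in endothelial-like cells (vertical axis, %) in comparisons with 5 other classes (horizontal axis), for the 32 genes, 4 further lists and all genes. The 32 genes stand between 80.6% and 90.3% in these comparisons and all genes between 9.05% and 18%.

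Since the genes were high in the same cells, the 250 bases before their start sites were searched for motifs of factors known from endothelial genes. RefSeq start windows (GRCm38.p6) were found for 26 of the 32 genes, 47 windows in all, of which 20 began within 50 bases of the GENCODE gene start. In GRCm38, Slc2a1 spans chr4:119108711-119137983 on the plus strand, Mfsd2a chr4:122946850-122961188 on the minus strand and Cldn5 chr16:18776847-18778262 on the plus strand. Sequences are printed for the 3 genes with over 97% of their summed class means in endothelial-like cells that have 1 window, within 50 bases of that start. Each is 5′ to 3′ on the gene's strand, from 250 bases to 1 base before the start, and capitals mark motif matches on either strand. Cldn5 lies at chr16:18776597-18776846 on the plus strand, Slco1a4 at chr6:141856221-141856470 on the minus strand and Slc19a3 at chr1:83038449-83038698 on the minus strand.
Cldn5: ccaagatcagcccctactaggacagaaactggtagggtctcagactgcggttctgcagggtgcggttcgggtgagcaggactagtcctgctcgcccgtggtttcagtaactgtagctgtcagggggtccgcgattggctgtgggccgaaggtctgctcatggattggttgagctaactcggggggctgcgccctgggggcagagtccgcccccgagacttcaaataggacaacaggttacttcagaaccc
Slco1a4: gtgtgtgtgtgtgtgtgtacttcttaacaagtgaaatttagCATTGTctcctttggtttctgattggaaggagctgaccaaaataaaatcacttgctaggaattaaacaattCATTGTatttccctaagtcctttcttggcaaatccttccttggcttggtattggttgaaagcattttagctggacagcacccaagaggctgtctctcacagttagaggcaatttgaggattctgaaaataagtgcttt
Slc19a3: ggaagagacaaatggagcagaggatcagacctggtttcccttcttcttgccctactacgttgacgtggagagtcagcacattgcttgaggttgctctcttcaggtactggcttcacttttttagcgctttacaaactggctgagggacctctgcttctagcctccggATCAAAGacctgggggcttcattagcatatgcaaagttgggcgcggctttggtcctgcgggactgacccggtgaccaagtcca

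The motifs, searched on both strands, were CTTTGAT and CTTTGAA (TCF/LEF, the factors that carry the Wnt signal), CATTGT (SOX), TGTTTAC (FOX) and CCGGAAGT (ETS), and none is part of another. The Slc19a3 window held CTTTGAT once, on the other strand, from 83 bases before the start. The Slco1a4 window held CATTGT starting 209 and 138 bases before the start, and the Cldn5 window held none of the 5 motifs. Over the 47 windows CTTTGAA was found in 6 (12.8%, against 4.46% of all 32851 windows), of Abcb1a, Slc29a1, Slc39a10, Slc39a8, Slc3a2 and Slc7a1. CTTTGAT was found in 2 (4.26% against 3.2%), CATTGT in 3 (6.38% against 10.7%), TGTTTAC in 2 (4.26% against 3.17%) and CCGGAAGT in 1 (2.13% against 2.88%). Several windows belong to 1 gene, and among the 6 genes with CTTTGAA many lie far from the GENCODE start. The Abcb1a window lies 92986 bases before that start. The windows of Slc39a10 are 32924 and 39234 bases away from it, and that of Slc3a2 is 9472 bases away. Slc29a1 and Slc7a1 have windows up to 6669 and 7089 bases away. These are therefore counts of letters and not of sites.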

How the data were processed

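Single-cell RNA sequencing was made with the 3′ v3 chemistry of 10x Genomics to 700 M raw reads per library, per the labels' protocols. The authors' deposited values are UMI counts per gene and barcode, made with Cell Ranger 6.1.2 on mm10, per the submitters' processing notes. The sources used here do not give its settings or annotation. The members and lists were chosen with earlier results of these data known. Kept barcodes had 500 genes or more and no more than 10% mitochondrial UMIs. Scrublet in scanpy 1.11.5 removed 626 barcodes at its automatic threshold in library 1, and in library 2, where that threshold marked 0, the 844 highest scores up to a rate of 6%. The 2000 most variable genes, without the 32 genes, the 4 other lists, ribosomal and mitochondrial genes, gave 30 principal components, 15 neighbours and Leiden clusters at resolution 1. Clusters were named from 13 marker lists (at least 3 markers at 2-fold and 20 CPM). Scoring limits, and leaving unnamed the shallow clusters with over 80% of cells from 1 library, were set after seeing the data.

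UMIs were summed per class and library (8 classes, 16 sums) and tested in 1 fit with edgeR 4.0.16 (TMM, filterByExpr, Benjamini-Hochberg over 14462 genes, two-sided, 7 residual degrees of freedom), with the library as a block because its classes share a suspension. Classes were drawn from these cells, so p-values describe them as drawn. Gene symbols named are all 32 members and, from each list, the 4 called genes with the largest difference between endothelial-like and neuronal lineage-like cells. The test was tried on simulated data before use. Intervals and limits cover counting error only. Alternatives were other scaling and filtering, DESeq2 1.42.0, no replicate block, resolutions 0.5 and 2, doublets kept, stricter quality limits, and each library left out. Scripts ran under R 4.3.3 and Python 3.11.15 (igraph 0.11.9, scikit-learn 1.9.0, numpy 2.4.6, pandas 2.3.3), and motifs came from RefSeq windows of GRCm38.p6.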

Additional observations from a re-analysis of the deposited data

Results flagged for a closer look

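A signal of the barrier genes appeared in barcodes that no class above uses. An unnamed cluster of 15 and 254 barcodes, with a median of 2095 and 996.5 UMIs, had Kdr, Flt1, Adgrf5 and Pdgfb beside Apod and Col1a1 among its leading genes. In its library 2 barcodes Cldn5 was at 684 CPM (197 UMIs), Slc16a1 at 340.3 CPM, Slc7a5 at 219 CPM, Mfsd2a at 108 CPM and Slco1a4 at 48.6 CPM, and the summed level of the 32 genes was 3309 CPM. Cldn5 had no UMI in its library 1 barcodes. Endothelial markers were at 1326 CPM, fibroblast markers at 1566 CPM and erythroid markers at 36840 CPM in library 2, and their part in the signal was not tested.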

How the results depend on the processing

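The total numbers of genes called, higher and lower together, stayed within 1.5 times of the reported ones in the 9 comparisons of classes under every alternative that gave a value. Of the 186 calls over these comparisons, 184 were kept with DESeq2 size factors, 168 with the Wald test of DESeq2, 186 without the filter on low counts and 186 without clustering genes and markers. Resolution 0.5 kept 184, resolution 2 kept 181, doublets kept 182, and leaving out clusters with mixed markers, an alternative added after seeing the data, kept 180. Under stricter limits 153 of 161 were kept, and endothelial-like cells could not be compared with border macrophage-like cells. The fit without a replicate block kept 184 calls, losing Plvap in microglia-like (adjusted p = 0.0797) and Slc39a8 in oligodendrocyte lineage-like cells (0.0574) against neuronal lineage-like cells. With either library left out no residual degree of freedom remains, so genes past a 2-fold difference were counted without a test: 28 to 29, 29 to 30, 26 to 29, 26 to 29 and 29 for endothelial-like cells against pericyte-like, astrocyte-like, microglia-like, border macrophage-like and neuronal lineage-like cells. Against neuronal lineage-like cells they were 17 to 18 for pericyte-like, 15 for astrocyte-like, 12 to 13 for microglia-like and 7 to 10 for oligodendrocyte lineage-like cells. The lower genes among these moved more: without library 1 they were 4 in pericyte-like against neuronal lineage-like cells (1 called with both libraries), and without library 2 they were 5 in microglia-like against neuronal lineage-like (3 called), 3 in endothelial-like against astrocyte-like (1 called) and 2 in endothelial-like against pericyte-like cells (0 called, and 1 without library 1). Without library 1 the endothelial-like against astrocyte-like count was 2, as it was with mixed clusters left out. Where 0 were called lower, 1 was past 2-fold without library 2 in endothelial-like against microglia-like and against neuronal lineage-like cells, and 1 was called in the oligodendrocyte lineage under 4 alternatives. One value reversed: Cav1 in the pericyte-like class against neuronal lineage-like cells was -0.01 (adjusted p = 1.0) with stricter limits, and the cause was not tested. The median number of genes per endothelial-like cell was 8 at 1000 UMIs and 18 without thinning, because fewer or more UMIs were read. DESeq2 size factors moved the median log2 difference of all genes between endothelial-like and microglia-like cells from -0.17 to -0.01, and between microglia-like and neuronal lineage-like cells from -0.10 to -0.24. Of all calls between endothelial-like and microglia-like cells 45.9% were higher with edgeR, 53.6% with these size factors and 56.6% with the Wald test. In endothelial-like cells genes under about 20 CPM, such as Slc5a6, Cgn and Cldn12, rest on few UMIs. That limit differs between classes, since in library 1 a single UMI was 0.0505 CPM in neuronal lineage-like and 6.01 CPM in border macrophage-like cells.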

Other observations

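Within the endothelium, cells with at least 3 UMIs of 12 arterial genes (such as Bmx, Gja4, Sema3g and Efnb2, a list and a limit chosen after seeing the data) were set beside the rest, with no test. There were 35 and 34 such cells against 76 and 101, and 27 and 18 cells lay at the limit or 1 UMI below it. The cells with arterial genes were deeper, at a median of 8570 and 5681 UMIs against 4353 and 4064. Slc2a1 was at 567 and 605 CPM in cells with arterial genes and 392.1 and 382 CPM in the rest. Slco1a4 was at 289 and 361 CPM against 206 and 122 CPM, and Slc6a6 at 398 and 962 CPM against 149 and 340 CPM. Tjp1 was at 404 and 361 CPM against 253 and 262 CPM. In the other direction, Slc38a5 was at 609 and 446 CPM against 692 and 755 CPM and Slc29a1 at 139 and 116 CPM against 175 and 171 CPM. Cldn5 was nearly even, at 4487 and 4363 CPM against 4105 and 3845 CPM. All 7 kept these directions in both libraries at limits of 2, 3 and 5 UMIs, as did Abcg2, Esam, Marveld2 and Slc5a6. Other genes did not, among them Slc7a5, Slc16a1, Mfsd2a, Slc7a1, Abcb1a and Cav1.

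Among the 27 genes with at least 20 UMIs in endothelial-like cells, 14 were higher in both libraries in the cells with arterial genes, 7 were lower in both, and 6 differed in direction between the libraries. A ratio over 1.3 in both libraries was reached by 5 and one under its inverse by 0. How all genes divided between these cells was not counted.

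Plvap was uneven within the ependymal-like class. Cells with a UMI of Mcidas, Ccno or Deup1, which drive centriole amplification, numbered 164 and 34 and held Plvap at 111 and 191 CPM. The other 222 and 41 cells held it at 4.41 and 14.3 CPM, from 4 and 2 UMIs. Of the first set 41.5% and 35.3% of cells had a Plvap UMI, and of the second 1.35% and 4.88%, at median depths of 7434 and 6866 against 3894 and 2361 UMIs. Slc2a1 had the reverse order, at 86.5 and 68.6 CPM with these genes and 305.5 and 236.5 CPM without, as did Slc38a3, at 84.1 and 78.4 CPM against 158 and 172 CPM, and Ocln, at 39.3 and 53.9 CPM against 96.0 and 100.3 CPM. Of the endothelial markers, Pecam1 was at 3.93 and 14.7 CPM in the first set and 2.21 and 0 CPM in the second. Flt1 was likewise higher in the first set, at 5.50 and 14.7 CPM against 0 and 0 CPM. Kdr was at 5.50 and 0 CPM against 9.93 and 14.3 CPM, and Cdh5 at 0 and 9.80 CPM against 0 and 28.7 CPM. Each of these marker levels rests on 9 UMIs or fewer, and the part of endothelial RNA in the Plvap level was not tested. Cldn5 was at 19.7 and 14.7 CPM against 0 and 100.3 CPM. The genes that divide the cells were chosen after seeing which genes accompanied Plvap, and no test was made.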
